A study of Mus musculus with 44 samples.

Results

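The nuclear-encoded genes of the mitochondrial respiratory chain were followed across 2 sets of mouse cultures. Members were chosen by name alone from both count tables, as protein-coding genes called Nduf followed by a, b, c, s or v and a digit (complex I), Sdha to Sdhd (complex II), Uqcr genes and Cyc1 (complex III), Cox genes of the families 4 to 8 (complex IV) and Cycs (cytochrome c). The rule used no measured value and found 69 genes among the 54532 listed in each table. A filter on low counts left 66 of them among 14118 tested genes in L929 cells, where Cox6b2, Cox7b2 and Cox8c were too low. In neurons it left 65 among 17837, without Cox6a2, Cox7b2, Cox8b and Cox8c. Assigned by name, the tested members comprised 37 genes of complex I, 4 of complex II, 9 of complex III, Cycs, and 15 genes of complex IV in L929 cells or 14 in neurons.

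Poly(A) RNA was sequenced from L929 cells, a mouse fibroblast line, and from primary cortical neurons of mice, in a study of FRMD5 and the functions of the glucocorticoid receptor. The L929 libraries formed 4 groups of 4, a control and 3 groups labelled as isoform 2 in full length, without the combined intrinsically disordered domain (delta-IDR), or without the coiled coil and the low-complexity domains (delta-CC-LCD). The neuron libraries formed 7 groups of 4. Neurons received a control peptide at 100 µM without or with dexamethasone (DEX), a synthetic glucocorticoid, or DEX and the interfering peptide in doses of 1, 3, 10, 30 and 100 µM. Neurons were given DEX and peptide for 4 hours, and a treatment time of 4 hours is also listed for all L929 libraries. The labels leave out the DEX concentration. Nor do the labels say whether the L929 groups received DEX, how the constructs were introduced, whether each line is 1 clone, or the age of the animals that gave the neurons. Nothing in them places the 4 libraries of a group in separate cultures, so a p-value covers the scatter of these libraries alone, part of which could be technical.

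Complex I takes electrons from NADH and complex II takes them from succinate. Complex III passes them to cytochrome c, a small soluble carrier, and complex IV hands them to oxygen, while complexes I, III and IV pump protons that drive the ATP synthase. Most subunits are encoded in the nucleus and imported, and several complex IV subunits come as paired isoforms, a common form and one restricted to certain tissues or states. Outside the chain, cytochrome c released from mitochondria activates caspases.

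Library totals ran from 17211270 to 18313407 counts in L929 cells and from 13685236 to 17083701 in neurons. All 10 neuron markers exceeded 1 CPM in every neuron library, with summed levels of 3221 to 3837 CPM (read counts scaled by library size), against 0.104 to 1.73 CPM in L929 cells. Of 10 fibroblast markers, 7 passed 1 CPM in L929 cells, and Dcn, Lum and Thy1 did not. Summed fibroblast markers ranged from 9990 to 13020 CPM in L929 libraries and from 647 to 763 CPM in neurons. In the neuron libraries, astrocyte markers summed to 183 to 237 CPM, microglia markers to 19 to 28 CPM and oligodendrocyte markers to 78 to 107 CPM. Counts on Frmd5 did not check the constructs, since its group means lay between 0.0734 and 0.284 CPM in all 4 L929 groups. Within groups, libraries 1 with 3 and 2 with 4 resembled each other more than the other pairings in 3 of 4 L929 groups and 7 of 7 neuron groups. No pair agreed within sampling noise, and each library was entered as 1 replicate. Whether the more alike libraries share a culture was not tested, and counts with such pairs summed are given where they differ.

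In L929 cells a small set of chain genes rose in the construct groups against the control. Cycs, Cox5a (a complex IV subunit) and Ndufa10 (a complex I subunit) rose in all 3 groups, while Cyc1, Uqcrc1 (complex III) and Ndufs1 (complex I) rose in delta-IDR and delta-CC-LCD. Ndufs1, with 39642 counts over the L929 libraries, overlaps Eef1b2 on the other strand, which held 130988. The strand setting of the counting is not known. A smaller set moved further down. Ndufa4l2 and Cox7a1, alternative isoforms of chain subunits, fell in delta-IDR and delta-CC-LCD against both control and full-length, and Ndufv3, a small complex I subunit, fell in all 3. These calls held under 3 ways of scaling the libraries.

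Across the chain, 17 of 66 tested members were called higher and 1 lower in full-length against control, by edgeR's quasi-likelihood test at an adjusted p below 0.05. Of all tested genes 59.1% were called in that comparison, 30.3% higher and 28.7% lower. In delta-IDR 30 members were higher and 6 lower, where 64.4% of all genes were called, 32.8% higher and 31.6% lower. In delta-CC-LCD 29 were higher and 4 lower, where 64.6% of all genes were called, 31.9% higher and 32.7% lower. The share of members called, in either direction together, lay below that of the whole table in each comparison, and most of the members' changes were small. Called changes of over 1.5-fold numbered 1, 6 and 5 members in full-length, delta-IDR and delta-CC-LCD, while 24.1%, 27.3% and 29.1% of all tested genes were called and past that fold. The median absolute log2 change of the members was 0.09, 0.20 and 0.17 in the 3 comparisons, beside 0.31, 0.34 and 0.36 over all tested genes.

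The direction of the smaller changes depended on the scaling. Scaling by TMM gave a median log2 change near 0 over all genes, and total counts moved that median by -0.17, -0.11 and -0.14 in full-length, delta-IDR and delta-CC-LCD. The upper quartile moved it by -0.15, -0.15 and -0.14. With total counts the members split 4 higher to 13 lower in full-length, 13 to 14 in delta-IDR and 10 to 9 in delta-CC-LCD. With the upper quartile the splits were 4 to 10, 11 to 16 and 10 to 7. Under all 3 scalings alike, 4 members were called higher and 1 lower in full-length, 11 higher and 6 lower in delta-IDR, and 10 higher and 4 lower in delta-CC-LCD. No share of all genes was computed for calls under all 3 scalings alike. Such counts, here and below, therefore stand without a background. The splits with total counts and the upper quartile are also given without one. The data hold no measure of cell number or of RNA per cell, so differences in either cannot be told apart in these bulk libraries.

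Complexes were assigned by gene name, so complex I counts here and below include Ndufa4, whose protein is found in complex IV, and its relative Ndufa4l2. By complex, the calls that held under every scaling in delta-IDR were 3 higher and 2 lower of 37 in complex I, 1 higher of 4 in complex II, 2 higher and 1 lower of 9 in complex III, and 4 higher and 3 lower of 15 in complex IV, besides Cycs. Ndufa4 was among the higher and Ndufa4l2 among the lower calls counted there for complex I. In delta-CC-LCD they were 5 higher and 2 lower in complex I, none in complex II, 2 higher in complex III and 2 higher and 2 lower in complex IV, besides Cycs. In full-length, complex I gave 1 in each direction, complex IV 2 higher, and complexes II and III gave none. The plot of log2 changes by complex shows the same spread.

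**Figure D1:**
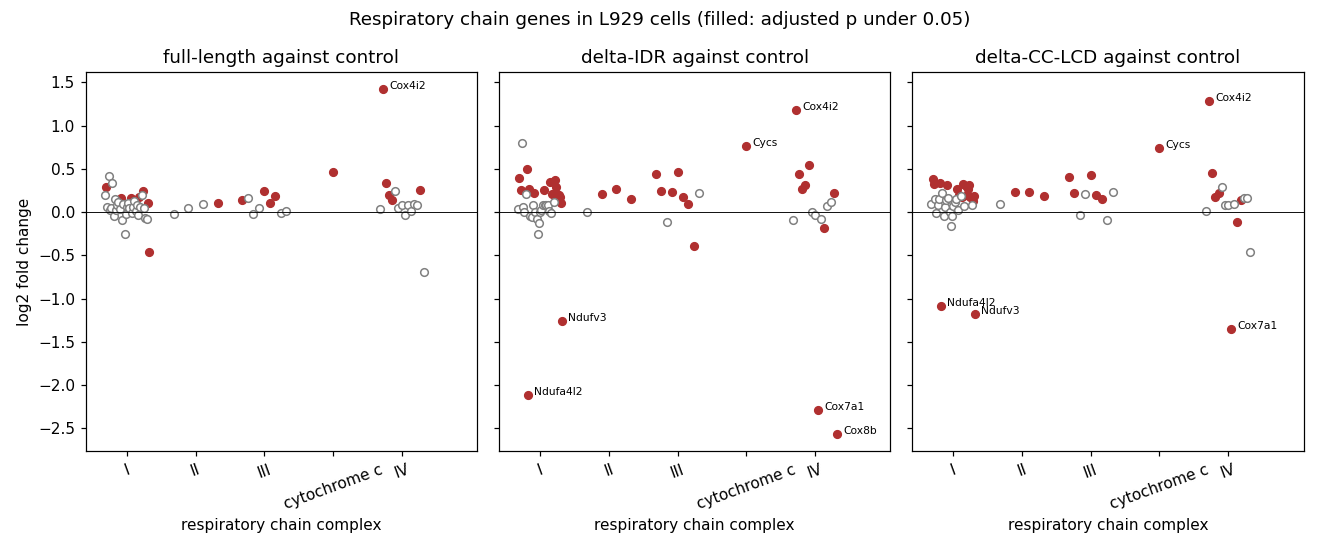
Log2 change of each tested respiratory chain gene against the L929 control (vertical axis, TMM-scaled) by complex (horizontal axis), in 3 panels for full-length, delta-IDR and delta-CC-LCD. Each point is 1 gene and filled points have an adjusted p below 0.05 in edgeR's quasi-likelihood test. Most points lie close to 0, and the lowest in delta-IDR are Cox8b at -2.57, Cox7a1 at -2.29 and Ndufa4l2 at -2.11.

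Cycs encodes somatic cytochrome c. It stood at 160.4, 162, 159.2 and 158.7 CPM in the control libraries and at 204.1, 223.5, 224.4 and 229.3 CPM in full-length. The delta-IDR libraries gave 269.6, 289.6, 263.2 and 267.8 CPM and delta-CC-LCD 256.7, 272.4, 263.8 and 279.9 CPM. The control libraries were the lowest 4, full-length lay above them, and both deletion groups lay above full-length with no overlap. Log2 changes against control were 0.46 ± 0.04 (SE, adjusted p = 5.1e-11) in full-length, 0.77 ± 0.04 (adjusted p = 3.15e-16) in delta-IDR and 0.74 ± 0.04 (adjusted p = 5.06e-16) in delta-CC-LCD. Against full-length, delta-IDR was 0.31 ± 0.04 higher (adjusted p = 1.21e-06) and delta-CC-LCD 0.28 ± 0.04 higher (adjusted p = 1.15e-05). Cycs lies on chromosome 6 from 50562563 to 50566538 (GRCm38). Its 4 near-identical copies held 6.35% as many counts, and with them summed in, Cycs stood at 0.45, 0.75 and 0.74.

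Complex III, which hands electrons to cytochrome c, showed the same order of groups in 2 of its subunits. Cyc1 encodes cytochrome c1, the haem protein of complex III that donates to cytochrome c. Its control libraries held 105.8, 101.1, 99.53 and 99.49 CPM and its full-length libraries 104.2, 119.7, 110.4 and 111.1 CPM, which overlap. The delta-IDR libraries held 132.8, 137.7, 134.2 and 144.6 CPM and delta-CC-LCD 121.4, 139.3, 137.1 and 139.8 CPM, all above control and full-length. Cyc1 rose by 0.44 ± 0.05 in delta-IDR (adjusted p = 3.62e-09) and by 0.41 ± 0.05 in delta-CC-LCD (adjusted p = 1.39e-08). In full-length its TMM value of 0.13 ± 0.05 (adjusted p = 0.019) turned to -0.04 with total counts and -0.02 with the upper quartile.

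Uqcrc1, a core subunit of complex III, lies on chromosome 9 from 108936633 to 108949623. Control libraries held 178.1, 186.3, 210.5 and 187.8 CPM and full-length 207.2, 243.9, 207.3 and 243.4 CPM. The delta-IDR libraries held 262.8, 265.5, 272.7 and 252.9 CPM and delta-CC-LCD 251.8, 267.2, 260.5 and 247.7 CPM. Control and full-length overlapped, and both deletion groups lay wholly above them. The gene rose by 0.47 ± 0.05 in delta-IDR (adjusted p = 4.08e-08) and by 0.43 ± 0.05 in delta-CC-LCD (adjusted p = 1.51e-07). Its value in full-length, 0.24 ± 0.05 (adjusted p = 0.000459), was 0.07 (adjusted p = 0.27) with total counts.

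Uqcrh, the hinge protein that helps cytochrome c1 meet cytochrome c, went the other way in 1 group. Its control libraries held 142.6, 124.3, 133.5 and 132.1 CPM and its delta-IDR libraries 93.56, 103.5, 88.21 and 119.2 CPM, without overlap. It fell by 0.40 on the log2 scale there (SE 0.08, adjusted p = 0.000212). Against delta-CC-LCD the delta-IDR value was -0.30 ± 0.08 (adjusted p = 0.00829), although the libraries of those groups overlap.

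In complex IV, Cox5a, a nuclear-encoded subunit, held 69.08, 67.71, 69.02 and 69.44 CPM in control and 82.1, 94.26, 83.99 and 85.75 CPM in full-length. It held 88.54, 92.4, 93.87 and 100 CPM in delta-IDR and 89.58, 98.55, 89.44 and 97.6 CPM in delta-CC-LCD. Every construct library lay above every control library. The gene rose by 0.33 ± 0.05 (adjusted p = 1.53e-06), 0.45 ± 0.05 (adjusted p = 5.5e-09) and 0.45 ± 0.05 (adjusted p = 4.65e-09) in full-length, delta-IDR and delta-CC-LCD. In delta-IDR, Cox6a1 and Cox5b also rose under every scaling, by 0.31 ± 0.06 (adjusted p = 2.76e-05) and 0.27 ± 0.05 (adjusted p = 2.4e-05). Cox5b has a copy with 11.2% as many counts.

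**Figure D2:**
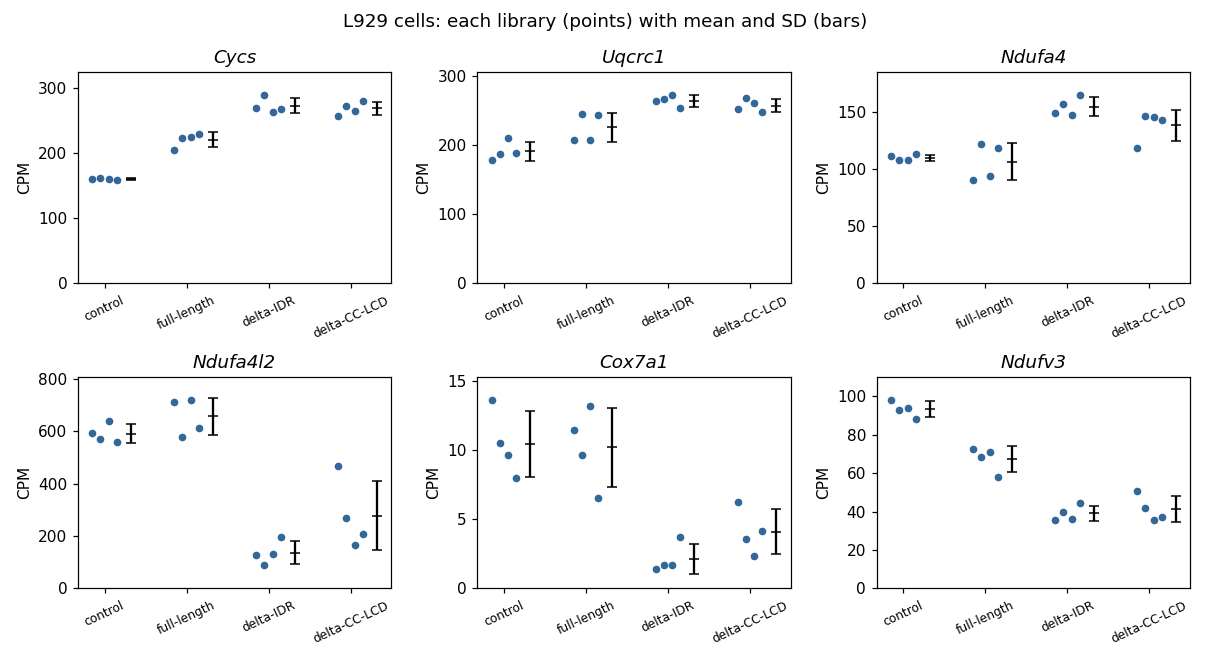
CPM (vertical axis, linear) of Cycs, Uqcrc1, Ndufa4, Ndufa4l2, Cox7a1 and Ndufv3 in each L929 library, by group (horizontal axis). Each point is 1 library and the bars give the group mean and SD of 4 libraries. Cycs runs from about 160.1 CPM on average in control to 272.5 CPM in delta-IDR, while Ndufa4l2 goes from 590.02 to 136.31 CPM.

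The paired isoforms Ndufa4 and Ndufa4l2 parted in delta-IDR. Ndufa4 is grouped with complex I by name but its protein is found in complex IV, and Ndufa4l2 is a related protein known to be induced in hypoxia and to lower complex I activity. Ndufa4 held 111.4, 108.2, 107.9 and 113.2 CPM in control and 149.1, 157.1, 147.8 and 165.8 CPM in delta-IDR, with no overlap, a rise of 0.49 ± 0.09 (adjusted p = 0.000256). Its full-length libraries held 90.97, 122.2, 94.52 and 118.8 CPM and straddled the control. In delta-CC-LCD it held 118.5, 146.7, 145.9 and 143.3 CPM, where its change of 0.33 ± 0.09 (adjusted p = 0.00552) became 0.19 with either other scaling (adjusted p = 0.107 and 0.105).

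Ndufa4l2 was the member with the highest level per length in control cells. It lies on chromosome 10 from 127514967 to 127517154 and held 593.5, 569.9, 638.9 and 557.8 CPM in control and 712.6, 578.6, 719.8 and 613.1 CPM in full-length. The delta-IDR libraries held 128, 88.73, 131.9 and 196.6 CPM and delta-CC-LCD 465.6, 270.4, 166.2 and 207.8 CPM. Both deletion groups lay wholly below control, and the first delta-CC-LCD library was much higher than the other 3. The log2 change was -2.11 ± 0.30 (adjusted p = 3.6e-05) in delta-IDR and -1.09 ± 0.29 (adjusted p = 0.00493) in delta-CC-LCD.

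Set against full-length, those values were -2.27 ± 0.30 (adjusted p = 0.000103) and -1.24 ± 0.29 (adjusted p = 0.00942). Between the deletions, Ndufa4l2 was lower in delta-IDR by -1.03 ± 0.29 (adjusted p = 0.0248). That call was lost without delta-CC-LCD library 1 (-0.67, adjusted p = 0.0627) and without delta-IDR library 1, 2 or 3 (adjusted p = 0.0607, 0.0714 and 0.0605). Shmt2 overlaps Ndufa4l2 on the other strand and was higher in delta-IDR (0.18 ± 0.04, adjusted p = 0.000275), the opposite direction. No source used here gives the strand setting of the counting.

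Cox7a1, the heart and muscle form of a complex IV subunit whose common form is Cox7a2, lies on chromosome 7 from 30184144 to 30186078 and was low throughout. Control libraries held 13.63, 10.5, 9.65 and 7.96 CPM and full-length 11.42, 9.61, 13.2 and 6.52 CPM. The delta-IDR libraries held 1.4, 1.7, 1.71 and 3.73 CPM and delta-CC-LCD 6.27, 3.58, 2.36 and 4.14 CPM. Both deletion groups lay below every control and full-length library. It fell by 2.29 on the log2 scale in delta-IDR (SE 0.35, adjusted p = 5.59e-05) and by 1.35 in delta-CC-LCD (SE 0.32, adjusted p = 0.00204).

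Ndufv3 encodes a small subunit of the NADH-binding arm of complex I. It held 98.27, 92.86, 93.83 and 88.13 CPM in control and 72.57, 68.31, 71.21 and 57.96 CPM in full-length. In delta-IDR it held 35.84, 39.88, 35.96 and 44.5 CPM, while delta-CC-LCD held 50.8, 41.68, 35.57 and 37.28 CPM. The 3 construct groups lay below control, and both deletions lay below full-length. The log2 changes were -0.47 ± 0.10 (adjusted p = 0.00054), -1.26 ± 0.10 (adjusted p = 8.74e-09) and -1.17 ± 0.10 (adjusted p = 1.83e-08). The core subunits of the same arm, Ndufv1 and Ndufv2, stood at 0.18 ± 0.05 and 0.10 ± 0.04 in delta-IDR, values that were 0.07 and -0.01 with total counts.

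Cox4i2 and Cox8b, the second forms of Cox4i1 and Cox8a, were near the floor of detection. Cox4i2 ranged from 0.21 to 0.52 CPM in control, from 0.71 to 1.74 CPM in full-length, from 0.74 to 0.89 CPM in delta-IDR and from 0.42 to 1.18 CPM in delta-CC-LCD. It was called higher in the 3 comparisons with control, at 1.42 ± 0.41, 1.18 ± 0.41 and 1.28 ± 0.41 (adjusted p = 0.00337, 0.014 and 0.00761), and the delta-IDR call was lost without control library 1 (0.99, adjusted p = 0.0523). Cox8b ranged from 1.04 to 2.4 CPM in control and from 0.11 to 0.41 CPM in delta-IDR, a change of -2.57 ± 0.46 (adjusted p = 1.38e-05). Cox7a2l, which promotes supercomplex assembly, stood at -0.19 ± 0.04 in delta-IDR, and at -0.12 ± 0.04 with delta-CC-LCD (adjusted p = 0.000279 and 0.0128). A copy of it, Gm6969, held 53.1% as many counts and stood at -0.22 and -0.10.

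The construct groups also differed from each other. Against full-length, delta-IDR had 12 members higher and 8 lower of 66, where 25.3% of all genes were called (11.7% higher and 13.6% lower). Delta-CC-LCD had 10 higher and 4 lower, where 19.3% were called (8.41% higher and 10.9% lower). Under every scaling these were 12 and 6, and 10 and 3. Cyc1 was 0.30 ± 0.05 higher in delta-IDR (adjusted p = 1.72e-05) and 0.27 ± 0.05 in delta-CC-LCD (adjusted p = 0.000164), and Ndufs1, the largest core subunit of complex I, 0.27 ± 0.05 and 0.25 ± 0.05 (adjusted p = 5.35e-05 and 0.000312). Sdhb and Sdhc, the iron-sulphur subunit and a membrane anchor of complex II, were higher in both, by 0.16 ± 0.05 and 0.17 ± 0.05 in delta-IDR and by 0.19 ± 0.05 and 0.14 ± 0.05 in delta-CC-LCD. Without delta-CC-LCD library 1 the second count rose from 14 to 24 members.

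Delta-IDR against delta-CC-LCD gave 0 members higher and 3 lower, where 22.3% of all genes were called (11.6% higher and 10.7% lower). The 3 were Ndufa4l2, Uqcrh and Cox8b, the last at -2.10 ± 0.48 (adjusted p = 0.00155). Without delta-IDR library 4 the count was 10.

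Genes that work with the chain were counted from lists of textbook members. Of all tested genes, 30.3%, 32.8% and 31.9% were called higher in full-length, delta-IDR and delta-CC-LCD against control. The shares called lower were 28.7%, 31.6% and 32.7%. Of 17 genes of the ATP synthase (complex V), 3, 6 and 8 were called higher and 0, 1 and 0 lower in full-length, delta-IDR and delta-CC-LCD against control. Of 16 genes of the tricarboxylic acid cycle, which feeds complexes I and II, 7, 12 and 11 were higher and 1, 0 and 0 lower. Dlst, a subunit of the 2-oxoglutarate dehydrogenase complex, rose by 0.52 and Idh3a, a subunit of isocitrate dehydrogenase, by 0.50 in delta-IDR (adjusted p = 1.06e-13 and 4.11e-12).

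Of 14 complex I assembly genes, 6, 8 and 9 were higher and 3, 2 and 0 lower, led in delta-IDR by Ndufaf4 at 1.43 (adjusted p = 6.82e-21). Of 27 tested assembly genes of complexes II to IV, 5, 7 and 8 were higher and 6, 5 and 3 lower, with Cox10, which makes haem for complex IV, at 1.19 in delta-IDR (adjusted p = 2.5e-16). Of 13 regulators of mitochondrial biogenesis, 4, 5 and 4 were higher and 4, 4 and 5 lower. Among these Pprc1 stood at 1.30 in delta-IDR (adjusted p = 9.63e-20) and its relative Ppargc1a, the coactivator PGC-1alpha, at -1.82 (adjusted p = 5.43e-16).

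Of the 13 protein genes of the mitochondrial genome, 4, 5 and 7 were higher and none lower. Their summed level was 17170 ± 1060 CPM (SD, n = 4) in control. It was 20080 ± 1720 CPM in full-length, 20880 ± 1480 CPM in delta-IDR and 19830 ± 1090 CPM in delta-CC-LCD. Counts of these lists are under TMM scaling. Several of them are near the background, the shares of all tested genes given with the first of these lists.

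A list of 10 genes tied to hypoxia-inducible factor (HIF), among them Ndufa4l2 and Cox4i2, was also counted. In delta-IDR 9 were called lower and 1 higher, in delta-CC-LCD likewise 9 and 1, and in full-length 2 and 1. Pdk1, the kinase that restrains pyruvate entry to the mitochondrion, stood at -1.92 in delta-IDR (adjusted p = 1.09e-07), and Slc2a1, a glucose transporter, at -1.85 (adjusted p = 2.85e-08). The gene called higher was Cox4i2 in each comparison. Summed over the 8 genes that are not respiratory chain members, libraries held 4800 to 4990 CPM in control, 4510 to 5410 CPM in full-length and 2010 to 2710 CPM in delta-IDR. In delta-CC-LCD they held 4110, 3250, 2700 and 2810 CPM, and library 1 was the highest, as it was for Ndufa4l2. Of 7 tested fibroblast markers, 4, 6 and 5 were called lower in full-length, delta-IDR and delta-CC-LCD against control. Their summed level ran from 12200 to 12820 CPM in control and from 12170 to 13020 CPM in full-length. Delta-IDR ran from 10080 to 10870 CPM and delta-CC-LCD from 9990 to 11790 CPM. The part of these differences in the Ndufa4l2 result was not tested.

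Promoter windows were searched for short factor words. RefSeq windows from 250 bases before to 50 after the start (GRCm38.p6) were found for 54 of 69 members. The palindromic word of nuclear respiratory factor 1 (NRF1) with 1 free base, on either strand, was present in 20.4% of these, against 5.19% of 27025 gene windows. Its strict form, which the free form includes, was present in 5.56% against 1.07%. The ETS word CCGGAAG was present in 20.4% against 9.93% and the YY1 word AAGATGGC in 13.0% against 3.19%. The core of the HIF element was present in 22.2% against 21.8% as ACGTG and in 53.7% against 35.2% as GCGTG. The 27025 background windows took in genes whether or not they were expressed here. They were not matched to the members for expression or base content. The windows of Uqcrc1 and Cox7a1 are printed as examples of the words, 5′ to 3′ along the gene, with the NRF1 word, ACGTG and GCGTG in capitals on either strand. A word is a description of the window, not of binding.
Uqcrc1 (chr9:108936398-108936697, plus strand): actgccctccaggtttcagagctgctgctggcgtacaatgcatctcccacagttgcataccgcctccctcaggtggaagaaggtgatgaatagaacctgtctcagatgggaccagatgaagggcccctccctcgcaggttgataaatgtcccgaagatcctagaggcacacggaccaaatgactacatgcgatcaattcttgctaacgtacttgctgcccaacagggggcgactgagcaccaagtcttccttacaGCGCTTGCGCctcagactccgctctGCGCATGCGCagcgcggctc
Cox7a1 (chr7:30183921-30184220, plus strand): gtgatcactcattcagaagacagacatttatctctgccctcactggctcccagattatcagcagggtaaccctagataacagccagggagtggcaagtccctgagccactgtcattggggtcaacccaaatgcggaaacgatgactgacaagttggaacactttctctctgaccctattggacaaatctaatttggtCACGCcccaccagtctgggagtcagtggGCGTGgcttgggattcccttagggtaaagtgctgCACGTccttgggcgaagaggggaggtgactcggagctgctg
The Uqcrc1 window holds 2 NRF1 words near the start, 1 of them the strict form, and no ACGTG or GCGTG. The Cox7a1 window holds 1 ACGTG and 2 GCGTG words and no NRF1 word. Ndufv3, which also fell, holds 1 ACGTG and 3 GCGTG and no NRF1 word, and no window was found for Ndufa4l2. Among other genes that rose, Cycs holds 2 ACGTG and 2 GCGTG and no match to the NRF1 word as searched. Its window does hold tcgcatgcgc, which differs from the strict NRF1 word only at the first base. Such near matches were not counted in any window. Cox5a holds no match to the NRF1 word as searched, 1 ACGTG and 3 GCGTG.

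In neurons, DEX with control peptide called 4 of 65 members higher and 2 lower against no DEX, where 10.8% of all genes were called (5.44% higher and 5.35% lower). The higher ones included Ndufa10 and Ndufv2 (complex I) and Uqcrc1, and the lower ones were Ndufb3 and Ndufs5 (complex I). Ndufb3, a membrane arm subunit, held 33.51, 32.64, 28.17 and 29.45 CPM without DEX and 24.68, 24.78, 25.44 and 27.09 CPM with it, with no overlap (-0.28 ± 0.08, adjusted p = 0.0234).

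These calls were close to the threshold. With libraries 1 and 3 and libraries 2 and 4 summed as pairs, 1 member was called, Ndufs5. The count of 6 became 3 without DEX library 1 or 2 or no-DEX library 2, and 2 without no-DEX library 1. Ndufb3 was lost without DEX library 1 or 2 or no-DEX library 1 or 2 (adjusted p up to 0.0889). Ndufa10 (0.17 ± 0.05, adjusted p = 0.0166) was lost without DEX library 2 or no-DEX library 1, 2 or 3 (adjusted p up to 0.0556), and Uqcrc1 (0.18 ± 0.05, adjusted p = 0.0229) without DEX library 1 or no-DEX library 1 (adjusted p = 0.122 and 0.0841) and under both other scalings (adjusted p = 0.0645 and 0.0625). Of 13 mitochondrially encoded genes, 7 rose with DEX and none fell, from a summed 11230 ± 387 CPM to 13130 ± 1290 CPM (SD, n = 4).

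The interfering peptide was compared with control peptide, both with DEX. At 1 µM 1 member was higher and 0 lower, where 2.29% of all genes were called (1.4% higher and 0.891% lower). At 3 µM 6 were higher and 1 lower, against 5.25% of all genes (2.88% and 2.37%), and at 10 µM 4 and 1, against 5.38% (3.17% and 2.21%). At 30 µM 11 were higher and 1 lower, against 15.9% (8.62% and 7.26%), and at 100 µM 6 and 4, against 23.4% (11.9% and 11.5%). All 5 comparisons share the same 4 control libraries. The 7 calls at 3 µM became 3 without control peptide library 2 or 3 or 3 µM library 2 or 4, and the 5 at 10 µM became 3 without control peptide library 2, 3 or 4 or 10 µM library 1 or 4. The 10 calls at 100 µM became 6 without control peptide library 4 or 100 µM library 2. Called at 3 or more doses in the same direction were Uqcrh of complex III, Cox6b1 of complex IV and Ndufa3 and Ndufa4, while Ndufs5 of complex I was called at all 5 doses, higher at 4 and lower at 100 µM. The Ndufa4 calls at 3 and 100 µM (adjusted p = 0.0363 and 0.0497) were lost with total counts (adjusted p = 0.0826 and 0.326). They were also lost without any 1 of 6 and any 1 of 5 libraries (adjusted p up to 0.122 and 0.198). At 30 µM Ndufa4 stood at 0.21 (adjusted p = 0.0038), kept with each library left out. With the more alike libraries summed in pairs (1 with 3, 2 with 4), the counts from 1 to 100 µM were 0, 1, 1, 3 and 3. Ndufs5 was then called at 3, 10 and 100 µM, and Uqcrh and Cox6b1 at 30 and 100 µM.

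Uqcrh lies on chromosome 4 from 116066965 to 116075071. It held 67.07, 66.35, 62.52 and 65.74 CPM with control peptide, and 66.22, 59.18, 58.5 and 61.82 CPM at 1 µM. It held 78.82, 67.68, 78.88 and 77.07 CPM at 3 µM and 80.12, 72.2, 76.5 and 81.95 CPM at 10 µM. At 30 µM the libraries held 84.79, 83.05, 83.71 and 76.88 CPM and at 100 µM 88.63, 83.55, 79.1 and 75.96 CPM. From 3 µM upwards each library lay above all 4 libraries with control peptide and DEX. Libraries with control peptide and no DEX held 69.01, 67.83, 70.52 and 72.98 CPM, which overlap those at 3 and 10 µM. Against no DEX the 100 µM value was 0.22 (adjusted p = 0.00123), and 0.13 with total counts (adjusted p = 0.0511).

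The log2 changes of Uqcrh were 0.21 ± 0.06 (adjusted p = 0.019), 0.25 ± 0.06 (0.00391), 0.33 ± 0.06 (3.71e-05) and 0.32 ± 0.06 (1.98e-05) from 3 to 100 µM. The 3 µM call was lost without control peptide library 2 or 3 or 3 µM library 1, 3 or 4 (adjusted p up to 0.0611). A linear term in log10 dose over the 20 interfering peptide libraries gave 0.18 ± 0.03 per 10-fold dose (adjusted p = 5.53e-05). Gm12854, a pseudogene that overlaps it on the other strand, had a slope of 0.13 ± 0.13.

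Cox6b1, a subunit on the cytochrome c side of complex IV, held 65.2, 68.55, 61.8 and 73.5 CPM with control peptide. It held 79.34, 76.57, 78.72 and 88.7 CPM at 10 µM, 83.84, 77.45, 81.15 and 80.47 CPM at 30 µM and 85.33, 75.94, 79.1 and 76.82 CPM at 100 µM. All 12 of these libraries lay above the control peptide libraries. The changes were 0.26 ± 0.06, 0.26 ± 0.06 and 0.24 ± 0.06 (adjusted p = 0.00228, 0.000812 and 0.00144). At 3 µM the value was 0.18 ± 0.06 (adjusted p = 0.041), lost without any 1 of 5 libraries (control peptide 1, 2 or 3, and 3 µM 2 or 4, adjusted p up to 0.222). The slope on dose was 0.10 ± 0.03 (adjusted p = 0.00896, and 0.0555 with total counts).

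**Figure D3:**
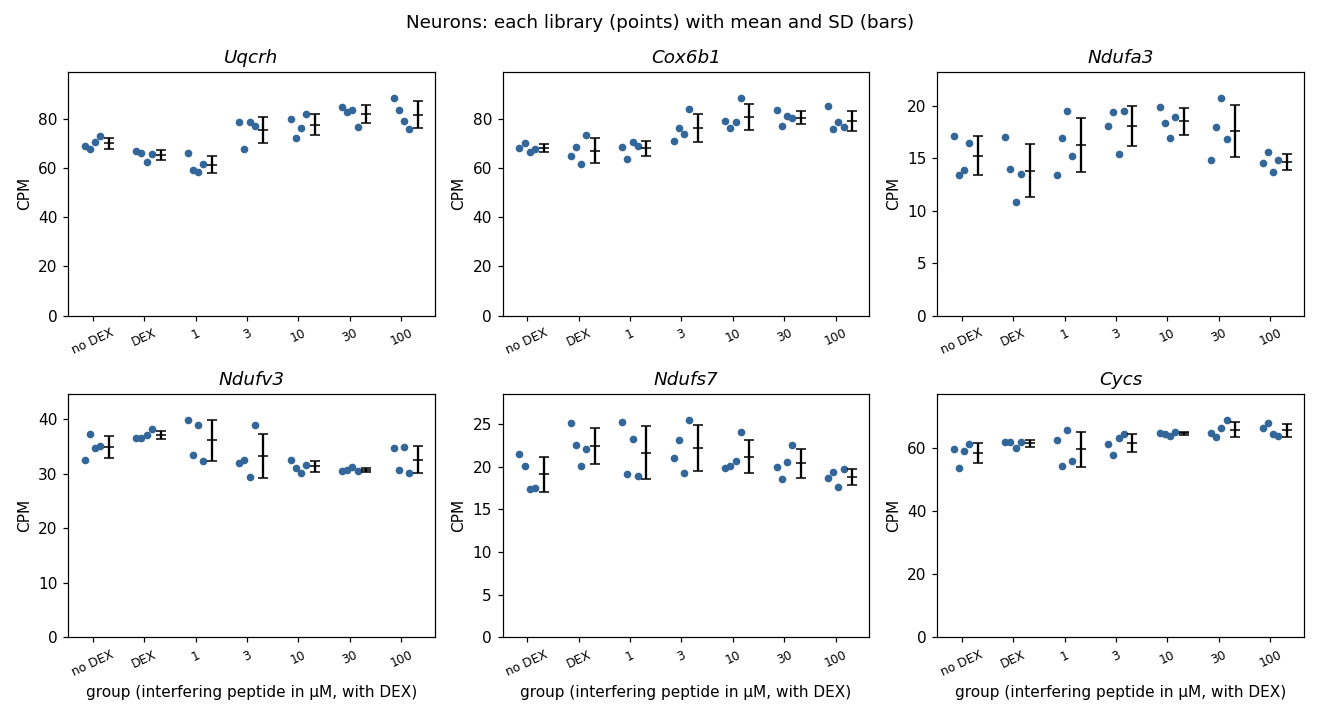
CPM (vertical axis, linear) of Uqcrh, Cox6b1, Ndufa3, Ndufv3, Ndufs7 and Cycs in each neuron library, by treatment (horizontal axis, no DEX, DEX with control peptide, then interfering peptide from 1 to 100 µM). Points are libraries and bars give the mean and SD of 4. Uqcrh lies above its libraries with DEX and control peptide (62.52 to 67.07 CPM) from 3 µM upwards.

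At 30 µM complex IV held 6 of the 11 higher members, of 14 tested, and complex I held 4 of 37, where 8.62% of all tested genes were called higher. Those of complex I were Ndufa3, Ndufb3, Ndufs5 and Ndufa4, which is grouped there by name only. With its near-identical copy summed in, Ndufs5 stood at -0.0855 (adjusted p = 0.526 in edgeR). With libraries summed in pairs 3 members were called at 30 µM in place of 12, and Cox7a2 (adjusted p = 0.0552) and Cox7b (adjusted p = 0.154) were not among them. The 6 were Cox6b1, Cox6c, Cox7a2, Cox7a2l, Cox7b and Cox7c, all small subunits or assembly partners around the catalytic core. Cox7a2 held 48.68, 49.55, 41.05 and 44.24 CPM with control peptide and 58.84, 61.7, 57.15 and 55.83 CPM at 30 µM (0.35 ± 0.09, adjusted p = 0.0101). Cox6c held 64.09, 70.89, 65.77 and 65.61 CPM and then 84.86, 80.14, 79.1 and 80.25 CPM (0.28 ± 0.06, adjusted p = 0.000362). Neither gene's groups overlapped. With total counts Cox7b (0.13, adjusted p = 0.103) and Cox7c (0.10, adjusted p = 0.166) were no longer called, which left 4 of the 6 called under every scaling. Summed complex IV levels were 779.6 ± 32.7 CPM with control peptide, 870.5 ± 9.65 CPM at 30 µM and 827.2 ± 40.8 CPM at 100 µM (SD, n = 4).

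Complex I members went both ways. Ndufa3, a small membrane arm subunit, held 17.01, 13.97, 10.84 and 13.54 CPM with control peptide and 19.89, 18.39, 16.91 and 18.96 CPM at 10 µM, groups that overlap slightly. It was called at 3, 10 and 30 µM, at 0.39 ± 0.11, 0.42 ± 0.11 and 0.35 ± 0.11 (adjusted p = 0.0346, 0.0219 and 0.0315). Leaving out control peptide library 3 gave 0.29, 0.32 and 0.25 (adjusted p = 0.143, 0.0975 and 0.149), and 5 or 6 single libraries ended the call at each dose. Tfpt, which overlaps Ndufa3 on the other strand, stood at 0.04, -0.08 and -0.04.

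Ndufv3, which fell in the L929 construct groups, held 36.51, 36.68, 37.15 and 38.18 CPM with control peptide and 30.55, 30.71, 31.32 and 30.62 CPM at 30 µM, with no overlap (-0.27 ± 0.07, adjusted p = 0.00961). At 10 µM it held 32.55, 31.13, 30.23 and 31.67 CPM (-0.24 ± 0.07, adjusted p = 0.0441), a call lost without any 1 of 7 of the 8 libraries (all but control peptide library 1, adjusted p up to 0.123). At 100 µM it held 34.72, 30.72, 34.91 and 30.24 CPM and was not called. Ndufs7, a core iron-sulphur subunit, held 25.1, 22.57, 20.02 and 22.05 CPM with control peptide and 18.61, 19.38, 17.56 and 19.68 CPM at 100 µM (-0.26 ± 0.10, adjusted p = 0.0497). That call too was lost without any 1 of 7 of the 8 libraries (all but control peptide library 3, adjusted p up to 0.177).

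Cycs held 61.81, 61.87, 59.77 and 61.8 CPM with control peptide and 66.22, 67.83, 64.15 and 63.51 CPM at 100 µM. The libraries do not overlap, and Cycs was not called against control peptide at any dose. Against no DEX, where libraries held 59.64, 53.6, 58.91 and 61.01 CPM, the 100 µM value was 0.17 ± 0.05 (adjusted p = 0.0146), lost with total counts (0.08, adjusted p = 0.295) and the upper quartile (0.12, adjusted p = 0.0804) and without no-DEX library 2 (0.13, adjusted p = 0.0802).

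The comparison of 100 µM peptide and DEX with no DEX called 10 members higher and 3 lower, where 35.1% of all genes were called (17.4% higher and 17.7% lower). With libraries summed in pairs 5 were higher and 1 lower. Under all 3 scalings 3 were higher and 3 lower. The higher ones were Uqcrfs1, the Rieske iron-sulphur protein of complex III (0.26 ± 0.05, adjusted p = 0.000126), Cox5a (0.28 ± 0.07, adjusted p = 0.000949) and Ndufa11 (0.37 ± 0.11, adjusted p = 0.0055). The lower ones were Ndufs5, Ndufa4l2 and Cox6b2, the testis form of Cox6b1. Cox6b2 was low in all neuron libraries and was also called lower at 3 µM against control peptide, from 2.26 to 1.00 CPM on average (-1.15 ± 0.29, adjusted p = 0.0124).

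At 100 µM against control peptide, the 4 lower members were all of complex I: Ndufs5, Ndufs7, Ndufa6 and Ndufa8. Complex I supplied 37 of the 65 tested members, and 11.5% of all tested genes were called lower in this comparison. With its near-identical copy summed in, Ndufs5 was no longer called (-0.0048, adjusted p = 0.975 in edgeR). Ndufa6, an accessory subunit, held 32.57, 32.07, 36.5 and 34.78 CPM with control peptide and 30.64, 28.42, 29.1 and 29.08 CPM at 100 µM, without overlap (-0.21 ± 0.08, adjusted p = 0.0409). That call was lost without control peptide library 3 or 4 or 100 µM library 2, 3 or 4 (adjusted p up to 0.127). Ndufa8 stood at -0.19 ± 0.07 (adjusted p = 0.0443) with overlapping groups. All 4 calls held under the 3 scalings. Sdhd, a membrane anchor of complex II, stood at 0.17 ± 0.06 (adjusted p = 0.0249), a value not called with total counts.

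Along the dose series, 4 members had a positive slope and 3 a negative one of 64 tested, where 19.4% of all genes were called (9.46% positive and 9.91% negative). The slope of Ndufa4l2 was -0.41 ± 0.11 per 10-fold dose (adjusted p = 0.00545), from 2.94, 2.67, 3.16 and 2.51 CPM at 1 µM to 1.79, 1.72, 1.63 and 1.66 CPM at 100 µM, with no overlap. The other called slopes were those of Uqcrh, Cox6b1, Cox7b and Cycs (positive) and Ndufs5 and Sdha (negative). With libraries summed in pairs the 7 became 2, Ndufa4l2 and Uqcrh. The 7 became 4 without 100 µM library 1 or 2 or 30 µM library 4, and under all 3 scalings 1 positive and 3 negative slopes were called. Shmt2, on the strand opposite Ndufa4l2, had a slope of -0.34 ± 0.07 (adjusted p = 0.00323). Of 9 tested HIF-linked genes, 6 were higher and none lower at 1 µM against control peptide, 0 and 6 at 100 µM, and 8 had a negative slope. Pdk1 had a slope of -0.49 (adjusted p = 1.09e-12) and Bnip3, a mitophagy receptor, of -0.39 (adjusted p = 9.78e-10). In the peptide comparisons from 1 to 100 µM, mitochondrially encoded genes were called higher in 0, 0, 0, 0 and 1 of 13 and lower in 3, 6, 5, 2 and 0.

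Ndufs5, an accessory subunit of complex I on the intermembrane space side, had the lowest p of any member in neurons, and its counts traded places with those of a copy. Group means of Ndufs5 were 23.6 CPM without DEX, 16.9 CPM with DEX and control peptide, and 20.9, 26.1, 26.8, 21.4 and 10.3 CPM from 1 to 100 µM interfering peptide. Its libraries held 18.8, 15.6, 17 and 16.1 CPM with control peptide, 28, 27.6, 23.8 and 27.9 CPM at 10 µM and 11.2, 10.2, 11.3 and 8.68 CPM at 100 µM. All 10 µM libraries lay above the control peptide libraries and all 100 µM libraries below them. The log2 change was -0.48 (adjusted p = 0.000125) for DEX, 0.67 (adjusted p = 3.38e-07) at 10 µM and -0.70 (adjusted p = 2.04e-07) at 100 µM. At 1 µM, where Ndufs5 was the only member called, its value of 0.31 ± 0.09 (adjusted p = 0.0427) was lost without any 1 of 6 libraries (control peptide 2, 3 or 4, and 1 µM 1, 3 or 4).

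BC002163, a processed pseudogene of Ndufs5, lies on chromosome 16 from 42955631 to 42955949, on the plus strand, and Ndufs5 on the minus strand of chromosome 4, from 123712710 to 123718202 (GRCm38). Their sequences are given because they are nearly the same, with the differing bases in capitals. Positions are counted from 1 at the first base of the Ndufs5 coding sequence, with the Ndufs5 base first.
Ndufs5, first 300 bases: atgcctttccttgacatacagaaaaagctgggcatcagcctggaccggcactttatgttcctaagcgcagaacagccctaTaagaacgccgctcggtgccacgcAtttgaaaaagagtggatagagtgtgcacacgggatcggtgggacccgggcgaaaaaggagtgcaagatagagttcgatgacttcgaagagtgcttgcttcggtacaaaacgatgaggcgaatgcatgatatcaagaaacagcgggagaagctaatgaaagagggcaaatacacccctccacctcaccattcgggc
BC002163, first 300 bases: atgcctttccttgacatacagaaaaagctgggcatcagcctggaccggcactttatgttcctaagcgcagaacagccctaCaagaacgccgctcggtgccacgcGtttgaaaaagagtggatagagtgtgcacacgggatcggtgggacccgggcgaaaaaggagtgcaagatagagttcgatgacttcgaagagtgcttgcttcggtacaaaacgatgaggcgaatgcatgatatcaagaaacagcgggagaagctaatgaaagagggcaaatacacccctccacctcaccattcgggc
The pair differs at T81C and A105G, 2 differences in 319 aligned bases (99.4% identity) with no gap.

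The copy held 5.08 CPM on average without DEX, 12.3 CPM with DEX and control peptide, and 9.01, 5.54, 3.32, 6.07 and 18.7 CPM from 1 to 100 µM. Its libraries held 13.8, 13.8, 11.7 and 9.73 CPM with control peptide, 3.65, 2.29, 3.44 and 3.91 CPM at 10 µM and 17.6, 22, 16.6 and 18.4 CPM at 100 µM. In these groups the copy was high where Ndufs5 was low. Its share of the summed counts was 17.3% without DEX, 41.9% with DEX and control peptide, and 30.1%, 17.4%, 11%, 22.1% and 64.3% along the doses. The sum of both stayed between 27.5 and 31.7 CPM in the 7 groups. In L929 groups the copy held 1.06% to 1.34% of the sum.

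With both counted as 1 gene, no Ndufs5 call remained in any neuron comparison. The log2 change was then 0.02 for DEX (adjusted p = 0.883), 0.05 at 10 µM (adjusted p = 0.795) and -0.0048 at 100 µM (adjusted p = 0.975). No source used here says how reads were divided between the pair, so a shift of reads between the copies and a change of either gene cannot be told apart. Without Ndufs5, no member was called at 1 µM (3 had an unadjusted p below 0.05 in edgeR).

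**Figure D4:**
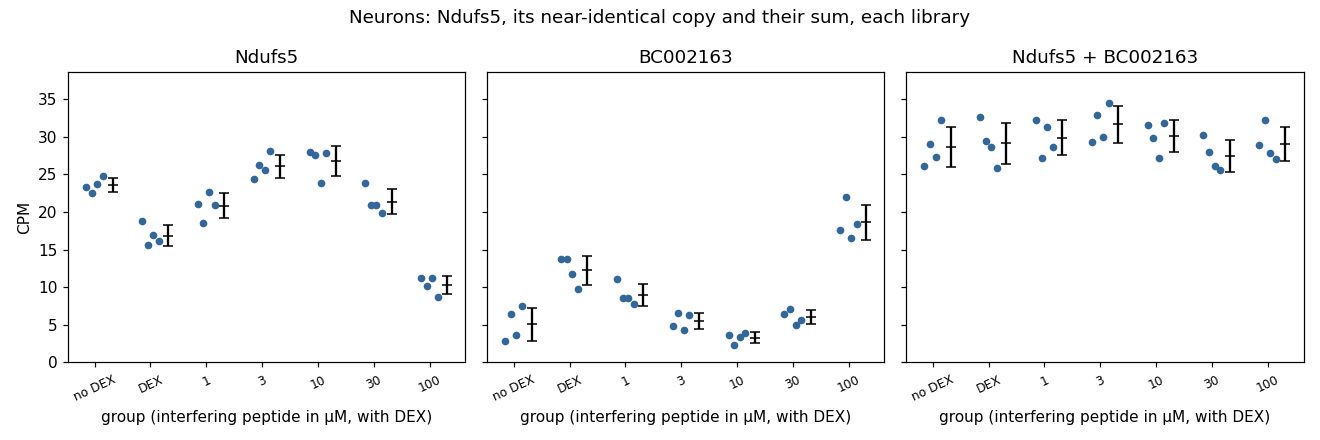
CPM (vertical axis, linear) of Ndufs5, its copy BC002163 and their sum in each neuron library, by treatment (horizontal axis). Points are libraries and bars give the mean and SD of 4. Ndufs5 and the copy cross between 30 and 100 µM, while the sum stays between group means of 27.5 and 31.7 CPM.

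Ndufa12, the complex I subunit at the junction of the arms, differed far more between libraries of a group than the median member. Its L929 libraries held 56.81, 60.69, 24.49 and 27.49 CPM in control, 51.98, 77.02, 72.16 and 25.54 CPM in full-length, 79.72, 41.85, 73.69 and 100.3 CPM in delta-IDR and 27.67, 31.95, 30.68 and 98.31 CPM in delta-CC-LCD. No comparison called it. The coefficient of variation within groups, averaged over the groups, was 47.9% for Ndufa12 in L929 cells and 45.2% in neurons. It was 6.75% and 6.55% for the median member and 5.99% and 6.52% for the median gene. Its copy Gm15920 held 47.4% as many counts in L929 cells and 97.3% in neurons. Copies of at least 95% identity over 200 bases or more were found for 14 of 69 members, and exceeded 5% of the member's counts for 4 in L929 cells and 5 in neurons.

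Levels per length in L929 control cells and in neurons with control peptide and no DEX are given side by side without a test, since the tables were normalised apart. The isoform pairs differ between the cell types as listed here in CPM per kilobase (mean ± SD, n = 4). Ndufa4l2 stood at 538.8 ± 32.69 in L929 control cells, above every other member, and at 2.60 ± 0.72 in neurons without DEX, while Ndufa4 stood at 79.79 ± 1.83 and 49.93 ± 1.29. Cox8a (341.5 ± 29.45 and 107.8 ± 6.54) exceeded Cox8b (4.06 ± 1.77 and 0.14 ± 0.28) in both.

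Cox4i1 stood at 211.7 ± 12.33 and 81.38 ± 1.57, and Cox4i2 at 0.46 ± 0.19 and 0.68 ± 0.51. Cox6a1 stood at 187 ± 9.22 and 103.2 ± 3.36, and its muscle form Cox6a2 at 3.70 ± 1.17 and 0.076 ± 0.051. Cox7a2 stood at 73.04 ± 0.89 and 49.75 ± 3.70, and Cox7a1 at 19.5 ± 4.44 and 1.5 ± 0.54. In both cell types the common form was the higher of each pair except Ndufa4 in L929 cells.

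**Figure D5:**
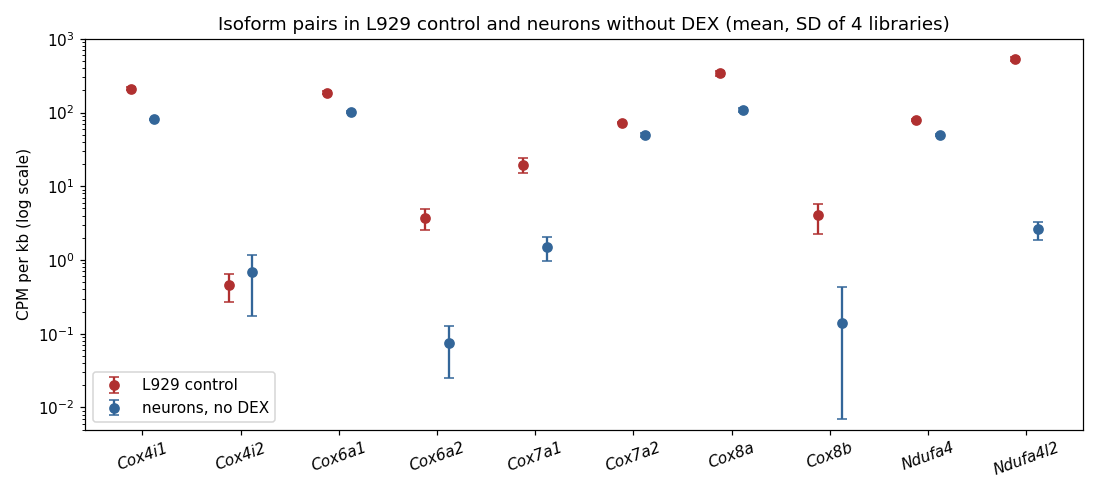
Level in CPM per kilobase of gene length (vertical axis, logarithmic) of 5 isoform pairs (horizontal axis) in L929 control cells and in neurons with control peptide and no DEX. Points are means and bars the SD of 4 libraries, with lower bars shortened where they would cross 0. Ndufa4l2 is at 538.8 in L929 cells and 2.60 in neurons.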

How the data were processed

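Gene counts were deposited by the authors as 1 table per cell type, as unnormalised counts per gene. HISAT2 2.2.1 and the mm10 build are named per the submitters' processing notes, and no source used here gives the counter, annotation or strand setting. Counts were tested with edgeR 4.0.16 (quasi-likelihood test, robust, TMM scaling, filterByExpr) in R 4.3.3, in 1 fit per table over all its groups, with Benjamini-Hochberg adjustment over all tested genes. A change was called at an adjusted p below 0.05. The slope was fitted on log10 dose of the 20 interfering peptide libraries. Levels are CPM with TMM scaling, and errors are SD over libraries or SE of a fitted log2 change. Total counts per library are given in the text and limit the precision of low genes. Alternatives were DESeq2 1.42.0, other scalings, no filter, only the 2 groups compared, the replicate number as a block, each library left out, and, chosen after seeing the data, copies summed with their genes. Copies were found with blastn 2.17.0 on GRCm38 transcripts, at 95% identity or more over at least 200 bases and over 100 kb away. Per-library values were given for Cycs, Cyc1, the largest called changes of members averaging at least 5 CPM, and isoform pairs. Members and lists were chosen with earlier results of these data known. The fit was tested on simulated data. The values of 1 member are not reported here.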

Additional observations from a re-analysis of the deposited data

Results flagged for a closer look

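Of 263 groups of 4 libraries checked, 17 held a library far from the other 3 by Dixon's ratio, where chance gives about 1 in 20. The 263 count the Cycs groups again as the cytochrome c sum, and any flag on that sum was left out of the 17. The share is therefore approximate. In L929 cells, full-length library 2 was high for Cox4i2 (1.74 CPM, nearest other 0.77) and Cox8b (1.86 CPM, nearest 0.668). Delta-IDR library 4 was high for Cox7a1 (3.73 CPM, nearest 1.71) and low for the summed mitochondrially encoded genes (18700 CPM, nearest 21500). Delta-CC-LCD library 1 was low for Cyc1 (121 CPM, nearest 137) and Ndufa4 (119 CPM, nearest 143), and library 4 high for Ndufa12 (98.3 CPM, nearest 32). Control library 1 was high for summed complex V (4520 CPM, nearest 4390).

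In neurons, Ndufa12 was high in 1 µM library 1 (37.5 CPM, nearest 11.9) and 3 µM library 3 (35.3 CPM, nearest 12.3). Cox7a2 was high in no-DEX library 1 (52.2 CPM, nearest 45.4). Low libraries were 3 µM library 4 for Cox7b (60.6 CPM, nearest 63.4), DEX library 3 for Cycs (59.8 CPM, nearest 61.8), 100 µM library 3 for Ndufb3 (22 CPM, nearest 30.2), 10 µM library 3 for Ndufs5 (23.8 CPM, nearest 27.6), 1 µM library 2 for Uqcrfs1 (67.3 CPM, nearest 72) and 3 µM library 2 for Uqcrh (67.7 CPM, nearest 77.1).

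Every 10 µM library lay above the mean of the control peptide libraries for Ndufs5 and every 100 µM library below it, the latter with a mean of 10.3 CPM. Each dose was tested against control peptide, and the 10 and 100 µM groups were not tested against each other. The copy BC002163, which is no member, stood at 18.7 CPM at 100 µM and 12.3 CPM with control peptide.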

How the results depend on the processing

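The replicate numbers did not pair the libraries in general: same-numbered libraries deviated together (r above 0.1) in 3 of 24 pairs in L929 cells and 15 of 84 in neurons, and correlated best with their own number in 6 of 24 and 16 of 84. No DEX and 1 µM differed from this. There all 4 libraries correlated best with their own number (r = 0.2058, 0.2326, 0.0936 and 0.1369). With the replicate block the count of members with a slope on dose was 4 in place of 7, and other counts stayed within 1.5 times. Scaling had the most effect on levels summed over all members. Against control, full-length, delta-IDR and delta-CC-LCD stood at 7.01%, 2.01% and 6.05% with TMM, at -4.83%, -5.47% and -4.02% with total counts and at -3.84%, -7.85% and -3.94% with the upper quartile. These sums include Ndufa4l2, which held 558 to 639 CPM in control and 88.7 to 197 CPM in delta-IDR. With TMM, summed complex I, which includes Ndufa4l2, stood at -8.72% in delta-IDR. Complexes II, III and IV stood at 7.8%, 13.9% and 4.4% there. Sums without Ndufa4l2 were not computed. No DEX against control peptide with DEX went from -4.55% to -2.81% and -2.67% (-6.25% to -3.41% with single libraries left out). With total counts 100 µM peptide went from 0.164% to -4.13% and 30 µM from 4.22% to 0.286% (2.37% to 5.46% with single libraries left out). In full-length against control, total counts and upper quartile turned Cyc1 to -0.0352 and -0.0202 and Cox6a1 to -0.0281 and -0.0134. The delta-CC-LCD count against control fell from 33 to 19 and 17 under these scalings, and the count for 100 µM with DEX against no DEX from 13 to 8 in both. The 3 µM count went from 7 to 4 with total counts and to 2 in a fit of only its 2 groups. Without the low-count filter, 6 members in place of 3 were called in delta-IDR against delta-CC-LCD and 3 in place of 7 on the slope.

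With libraries 1 with 3 and 2 with 4 summed, which leaves 2 values a group, counts were 9 for delta-CC-LCD against full-length, 1 for DEX, 0, 1, 1, 3 and 3 from 1 to 100 µM, 6 for 100 µM against no DEX and 2 for the slope. The single 1 µM call gave 0 in edgeR there, without the filter, in its 2 groups alone, with total counts and with copies summed (2, 6, 4, 6 and 3 members at an unadjusted p below 0.05 respectively), and 1 in DESeq2. Copies summed turned Ndufs5 to 0.0237 for DEX, -0.0855 at 30 µM and 0.0189 for 100 µM against no DEX. Leaving out single libraries gave 11 to 24 members for delta-CC-LCD against full-length, 2 to 10 for delta-IDR against delta-CC-LCD, 2 to 8 for DEX (2 without no-DEX library 1), 0 to 1 at 1 µM, 3 to 6 at 3 µM, 3 to 5 at 10 µM, 6 to 12 at 100 µM and 4 to 7 for the slope. Of 107 changes of named members, the fewest kept their side of the threshold with libraries summed in pairs (67), then with total counts (80), the upper quartile (90), copies summed, no filter or the replicate block (99 each) and DESeq2 or RLE size factors (106 each). A fit of only the 2 groups kept 87 of 98, and of 940 with a library left out 787 were kept. The causes were not tested. Genes under 1 CPM rest on few counts.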
